A study of Homo sapiens with 8 samples.

Results

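The genes described here are the chaperones, folding enzymes, stress sensors, degradation factors and translocation subunits of the endoplasmic reticulum (ER), the compartment in which secreted and membrane proteins are made. A list of 38 gene symbols defined them, and 35 of the 38 had a probe set that the array annotation pairs with that symbol alone, 61 probe sets in all. Each of the 35 genes is read from whichever of its probe sets was brightest by mean log2 value over the 8 arrays, and 11963 genes were read in that way in all. DNAJB11 and SYVN1 had no such probe set and PDIA5 had only a probe set shared with a microRNA gene, so no value is given for these 3.

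Expression was measured on Affymetrix human arrays in HL-60, a line of promyelocytic leukemia, and THP-1, a line of monocytic leukemia, both of the acute myeloid type. Cells of each line received diclofenac, a cyclooxygenase inhibitor used against inflammation, at 100 µM, or an equal amount of its solvent DMSO for 48 h. Each of the 4 groups, HL-60 with DMSO, HL-60 with diclofenac, THP-1 with DMSO and THP-1 with diclofenac, had 2 arrays titled as biological replicates. How separate the cultures behind a pair of arrays were is not given, so p-values measure the spread between these arrays.

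When unfolded proteins gather in the ER, 3 membrane sensors respond in what is called the unfolded protein response. ERN1 (also IRE1) splices the messenger RNA of the transcription factor XBP1, EIF2AK3 (also PERK) phosphorylates the initiation factor eIF2α and so slows translation, and ATF6 is cut in the Golgi to release a transcription factor. XBP1 and ATF6 raise chaperone and degradation genes, of which HSPA5, the Hsp70 chaperone BiP, is the usual readout. The arrays count messenger RNA and not splicing, phosphorylation or cleavage, so the activity of the sensors themselves was not measured.

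The array of THP-1 with DMSO, replicate 2, stood apart. Its background, taken as the 95th percentile over 27 control probe sets for bacterial transcripts, was an intensity of 238.63 against 33.23 to 60.2 on the other 7 arrays, and its median intensity was 241.2 against 109.6 to 150.3. The log2 values of the 35 genes differed between the replicates of THP-1 with DMSO by a median of 0.30, and by 0.06 to 0.10 in the other groups. DNAJC3 and EIF2AK3 were below background on that array, and ATF6 was below it on replicate 1 of both HL-60 groups. All other genes of the set were above background on all 8 arrays.

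The defining markers separated the lines only in part as their labels do. Of 5 granule protein genes of promyelocytes, ELANE, AZU1, PRTN3 and CTSG were above background on all 8 arrays, and AZU1 and PRTN3 were brighter on all 4 THP-1 arrays, at 7212.9 to 9350.6 against 1177.8 to 1622.3 and at 9716.1 to 13711.5 against 3439.9 to 4181.6. MPO was below background on both HL-60 DMSO arrays, at 41.7 and 40.6, and had 201.4 and 235.6 with THP-1 DMSO, the latter also below its array's background. Of 6 genes listed for the monocytic line, 4 were above background on both arrays of HL-60 with DMSO and 6 on both arrays of THP-1 with diclofenac. CD14 was below background on both HL-60 DMSO arrays and at 332.9 and 310.5 with THP-1 diclofenac. CSF1R was brighter on the 4 THP-1 arrays, at 221.6 to 426.3, than on the HL-60 arrays, at 78.6 to 138. MEIS1 was brighter on the 4 HL-60 arrays, at 635.3 to 684.3, than on the THP-1 arrays, at 237.5 to 383.8. The lines are named below as the labels name them. Summed intensities of the 6 B cell and plasma cell markers, cells rich in ER, ran from 432.4 to 984.4 on 7 arrays and to 1689.6 on the THP-1 DMSO array that stood apart, with MZB1 below background on all 8. T cell, erythroid, epithelial and fibroblast lists had summed intensities of up to 483.6 on the same 7 arrays and up to 880 on that array.

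ATF6 and XBP1 are known to act through short promoter elements, and the stretches below show those elements in 6 members. The ER stress response element (ERSE) was searched as CCAAT and CCACG 9 bases apart, and ERSE-II as ATTGG and CCACG 1 base apart, on both strands of the 250 bases before and 50 bases after each start site in RefSeq (GRCh38.p14). Promoters were found for 35 of the 38 symbols, with none listed for DERL1, PDIA3 and SPCS1. ERSE was present for HSPA5, HSP90B1, CALR, CANX, PDIA6 and XBP1, and in 0.0769% of all 35116 promoters. ERSE-II was present for HERPUD1, SDF2L1 and HYOU1, and in 0.0541% of all promoters. TGACGTGG, the XBP1 element called UPRE, was present for HYOU1 and SSR4 and in 0.729% of all promoters. A match describes letters and not a bound site. The 6 stretches lie upstream of the start, 5′ to 3′ along the gene's strand, with the element in capitals (its reverse complement for HYOU1):

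HSPA5: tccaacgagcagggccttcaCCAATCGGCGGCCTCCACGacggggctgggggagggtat
HSP90B1: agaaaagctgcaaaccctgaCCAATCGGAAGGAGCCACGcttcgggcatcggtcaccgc
PDIA6: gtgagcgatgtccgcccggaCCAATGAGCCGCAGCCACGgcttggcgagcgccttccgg
XBP1: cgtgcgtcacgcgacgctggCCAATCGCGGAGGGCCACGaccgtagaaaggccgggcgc
HERPUD1: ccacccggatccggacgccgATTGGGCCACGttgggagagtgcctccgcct
HYOU1: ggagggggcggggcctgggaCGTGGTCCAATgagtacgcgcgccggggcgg

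The HSPA5 stretch lies at chr9:125241371-125241429 on the minus strand and its element ends 48 bases before the start. The HSP90B1 stretch is chr12:103930196-103930254 on the plus strand, that of PDIA6 is chr2:10812833-10812891 on the minus strand, and that of XBP1 is chr22:28800583-28800641 on the minus strand. The ERSE-II stretches are chr16:56932005-56932055 on the plus strand for HERPUD1 and chr11:119057254-119057304 on the minus strand for HYOU1, which holds a further ERSE-II that ends 175 bases before the start.

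The first question was whether the folding machinery of the ER responded to diclofenac in either line. No member passed the test in HL-60 or in THP-1, 0 of 35 genes in each line (limma, adjusted p under 0.05), where 0.00836% and 0.184% of all 11963 genes passed. The median log2 change of the 35 genes was -0.08 in HL-60, with 10 genes above 0 and 25 below, and 0.08 in THP-1, with 21 above and 14 below. The median over all genes was -0.00 and -0.01. On the deposited scale, without quantile normalization, the medians of the 35 genes were -0.04 and 0.22, those of all genes -0.06 and -0.15, and again 0 of 35 passed in each line, beside 0.0167% and 0.251% of all genes. The shift of all genes on that scale depended on brightness, as the 1765 genes whose mean log2 value lay between the lower and upper quartile of the 35 had medians of 0.04 and 0.11.

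At an unadjusted p under 0.05 stood 4 of the 35 genes in HL-60 and 9 in THP-1, where 4.56% and 11.8% of all genes did. The 4 in HL-60, CANX, SSR2, PDIA3 and PDIA6, were all lower with diclofenac. Of the 9 in THP-1, EDEM1, EIF2AK3, HERPUD1, PDIA6 and MANF were higher and SPCS1, ERP29, CALR and SPCS3 lower. The standard error of a member's change had a median of 0.14 log2 units in each line. Each gene's spread was estimated over all arrays together, including the THP-1 DMSO array that stood apart. Between replicates the 35 genes differed by a median of 0.08 with HL-60 DMSO and 0.10 with HL-60 diclofenac. The THP-1 replicates differed by 0.30 with DMSO and 0.06 with diclofenac. The error given for HL-60 is thus not the spread of the HL-60 arrays alone. In HL-60 31 of 35 changes lay within 0.25 of 0 and none exceeded 0.5 in size, against 9.28% of all genes. In THP-1 21 lay within 0.25 and 5 exceeded 0.5, against 27.2% of all genes. All genes differ from the 35 in brightness, so sizes were also set beside the 1765 genes of like brightness. For HL-60 the median size of a change reached 0.118 over the members, 0.115 over genes of like brightness and 0.162 over all genes. For THP-1 these medians came to 0.216, 0.178 and 0.277. Beside genes of like brightness the members' changes were thus no smaller.

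Without the THP-1 DMSO array that stood apart, 1 control array was left. The THP-1 changes of the 35 genes then ran from -0.30 for DERL1 to 0.79 for DNAJB9. Without the other THP-1 DMSO array, so that the doubtful array alone stood for the control and was assumed to vary like the other groups, 8 of 35 genes passed, or 22.9%, where 32.7% of all genes did. DNAJC3, DERL2, EDEM1, EIF2AK3, DERL1 and HERPUD1 were then higher and CALR and SPCS3 lower.

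**Figure D1:**
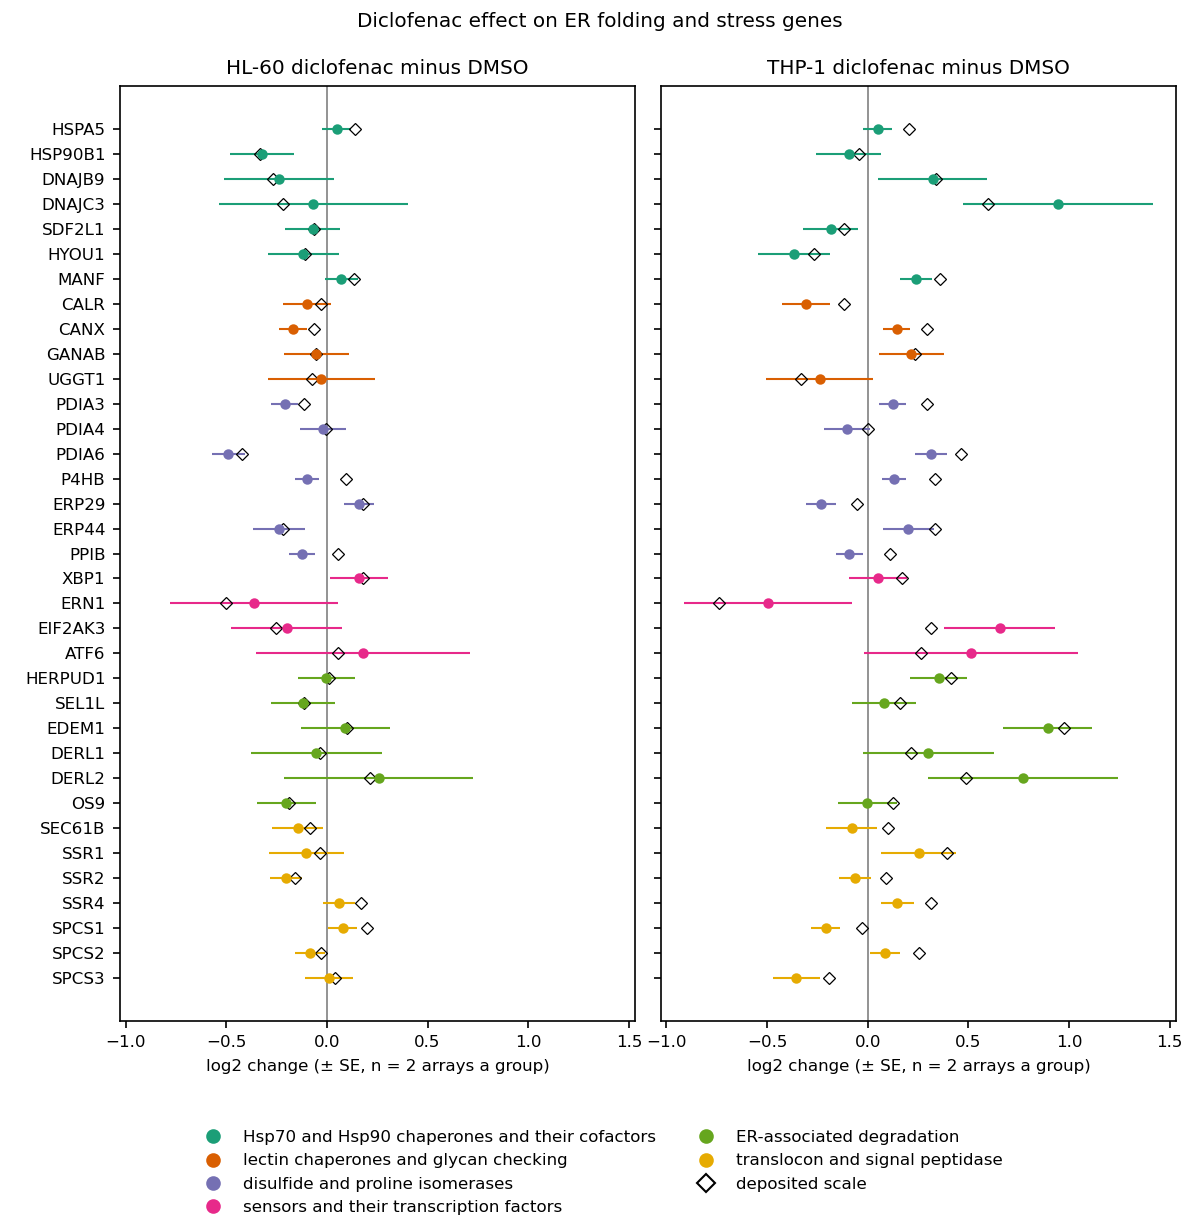
Log2 change with diclofenac of each of the 35 genes in HL-60 (left) and THP-1 (right), coloured by role. Filled points with bars are quantile-normalized changes ± the moderated standard error (n = 2 arrays a group), and open diamonds are the changes on the deposited scale. In HL-60 the points lie between -0.49 and 0.26, and in THP-1 between -0.49 and 0.94, with longer bars for ERN1, ATF6, DNAJC3 and DERL2.

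HSPA5, the BiP chaperone that binds unfolded chains and holds the sensors inactive, had intensities of 6600.7 and 7205.9 with HL-60 DMSO and 7118.5 and 8143.7 with HL-60 diclofenac. In THP-1 it had 6894.5 and 5438.6 with DMSO and 7194 and 6940.8 with diclofenac. The 4 groups thus lay close together, and the low value belongs to the array that stood apart. Its log2 change was 0.05 ± 0.07 (SE, n = 2 arrays a group) in both lines, with a 95% interval of -0.12 to 0.22 in each, and the deposited values gave 0.14 and 0.20.

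Of the 7 measured Hsp70 and Hsp90 chaperones and cofactors, 2 were above 0 in HL-60 and 4 in THP-1, and none passed. HSP90B1, the ER form of Hsp90, had 1048.8 and 983.6 with HL-60 DMSO and 732 and 868.2 with HL-60 diclofenac, a log2 change of -0.32 ± 0.16. In THP-1 it had 1587.8 and 1099.7 with DMSO and 1310.8 and 1252.6 with diclofenac, a change of -0.09 ± 0.16 with overlapping arrays. MANF, a secreted cofactor of BiP, was brighter on both diclofenac arrays in each line, as was XBP1 by the deposited values. After quantile normalization this held for XBP1 in HL-60 but not in THP-1. MANF had 3905.1 and 4282 against 4540.1 and 4458.2 in HL-60, a change of 0.07 ± 0.08. In THP-1 it had 2277.6 and 1865 against 2638.7 and 2677.1, a change of 0.24 ± 0.08 (limma, adjusted p = 0.388). DNAJC3, which inhibits EIF2AK3 and serves BiP as a co-chaperone, went from 124.5 and 67.3 to 174.1 and 159.3 in THP-1, and with the 67.3 below background its change of 0.94 ± 0.47 became 0.24 without that array. HYOU1, a nucleotide exchange factor of BiP, and SDF2L1, a BiP partner, had changes below 0 in both lines. DNAJB9, a co-chaperone that XBP1 induces, had overlapping arrays in THP-1, with a change of 0.32 ± 0.27, and -0.24 ± 0.27 in HL-60.

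Among the 4 lectin chaperones and glycan-checking enzymes none passed and the 4 changes in HL-60 were below 0, from -0.17 to -0.03. CALR and CANX bind folding glycoproteins, GANAB trims their glucose and UGGT1 puts it back. CALR, soluble calreticulin, had 5556.3 and 4737.1 with THP-1 DMSO against 4174.3 and 5327.3 with diclofenac, a change of -0.31 ± 0.12 (limma, adjusted p = 0.438) and of -0.12 on the deposited scale, on which the arrays overlapped. CANX, its membrane-bound relative, had changes of -0.17 ± 0.07 in HL-60 and 0.14 ± 0.07 in THP-1. GANAB's other probe set read lower with diclofenac in both lines, at 587.2 and 487.3 against 306.4 and 192.8 in HL-60 and at 402.5 and 766.3 against 297.7 and 255.6 in THP-1, and its representative did not, with changes of -0.05 and 0.22.

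The isomerases and their relatives are PDIA3, PDIA4, PDIA6 and P4HB, which form and shuffle disulfide bonds, ERP44 and ERP29 of the same protein family, and the proline isomerase PPIB. Their changes were below 0 in HL-60 for 6 of 7 genes and above 0 in THP-1 for 4 of 7, and none passed. PDIA6 had the largest change in HL-60, from 7582 and 7047.2 with DMSO to 5224.3 and 5663.9 with diclofenac, -0.49 ± 0.08 on the log2 scale (limma, adjusted p = 0.306). In THP-1 it went the other way, from 5335.9 and 4102.9 to 6297.6 and 6635, a change of 0.31 ± 0.08 (limma, adjusted p = 0.284). The arrays of the groups compared did not overlap in either line, and the difference between the lines' changes was 0.80 ± 0.11 (limma, adjusted p = 0.165). The probe set behind these values may also bind other transcripts, and the 2 PDIA6 probe sets without that mark gave -0.13 and -0.20 in HL-60 and -0.14 and -0.06 in THP-1, the opposite sign there.

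PDIA3, which acts with calnexin and calreticulin, had 8030.2 and 8816.8 with HL-60 DMSO and 7428 and 8148.1 with diclofenac, a change of -0.21 ± 0.07. In THP-1 it had 7296.6 and 4931.9 with DMSO and 7150.2 and 7611.2 with diclofenac, a change of 0.12 ± 0.07. Its deposited values overlapped in both lines, and the groups separated after quantile normalization alone. ERP29, a thioredoxin-fold protein without the catalytic cysteines, had the reverse pattern. It went from 2103.3 and 2164.6 to 2430.2 and 2419.3 in HL-60, a change of 0.16 ± 0.07, and from 5440.3 and 4022.8 to 4467.1 and 4547.9 in THP-1, a change of -0.23 ± 0.07 (limma, adjusted p = 0.37), with -0.05 on the deposited scale. ERP44, which retains unfinished proteins from the Golgi, had 1584.3 and 1461 against 1325.2 and 1276.9 in HL-60 and 1473.2 and 1553.8 against 1852.6 and 1988.8 in THP-1, changes of -0.24 ± 0.13 and 0.20 ± 0.13.

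Counted by arrays that did not overlap after quantile normalization, 5 of 35 genes were higher and 13 lower with diclofenac in HL-60. The 5 were HSPA5, XBP1, MANF, DERL2 and ERP29. Of all genes 20.7% were higher and 19.7% lower there, and of genes of like brightness 26.5% and 22.4%. In THP-1 13 were higher and 7 lower, beside 19.4% and 21.3% of all genes and 23.8% and 29.5% of genes of like brightness. On the deposited scale 5 were higher and 12 lower in HL-60, beside 15.7% and 25.2% of all genes and 29.6% and 18.3% of genes of like brightness. In THP-1 12 were higher and 2 lower on that scale, beside 14.6% and 20.6% of all genes and 29.8% and 12.6% of genes of like brightness. After quantile normalization CANX, PDIA3, PDIA6, P4HB, DNAJC3, SPCS2 and ERP44 were among the 13 lower in HL-60 and the 13 higher in THP-1. By the deposited values only PDIA6, DNAJC3 and ERP44 of these had arrays that did not overlap in both lines. The share of all genes with such opposite directions is not given. With the same normalization ERP29 was higher in HL-60 and lower in THP-1, and PPIB was lower in both lines. By the deposited values the arrays overlapped for ERP29 in THP-1 and for PPIB in both lines. The difference between the 2 lines' changes had a median of 0.20 over the 35 genes and of -0.01 over all genes. It was called for 0 of 35 genes, as for 0% of all 11963 (limma, adjusted), and stood at an unadjusted p under 0.05 for 8 of the 35 and 7.39% of all genes.

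**Figure D2:**
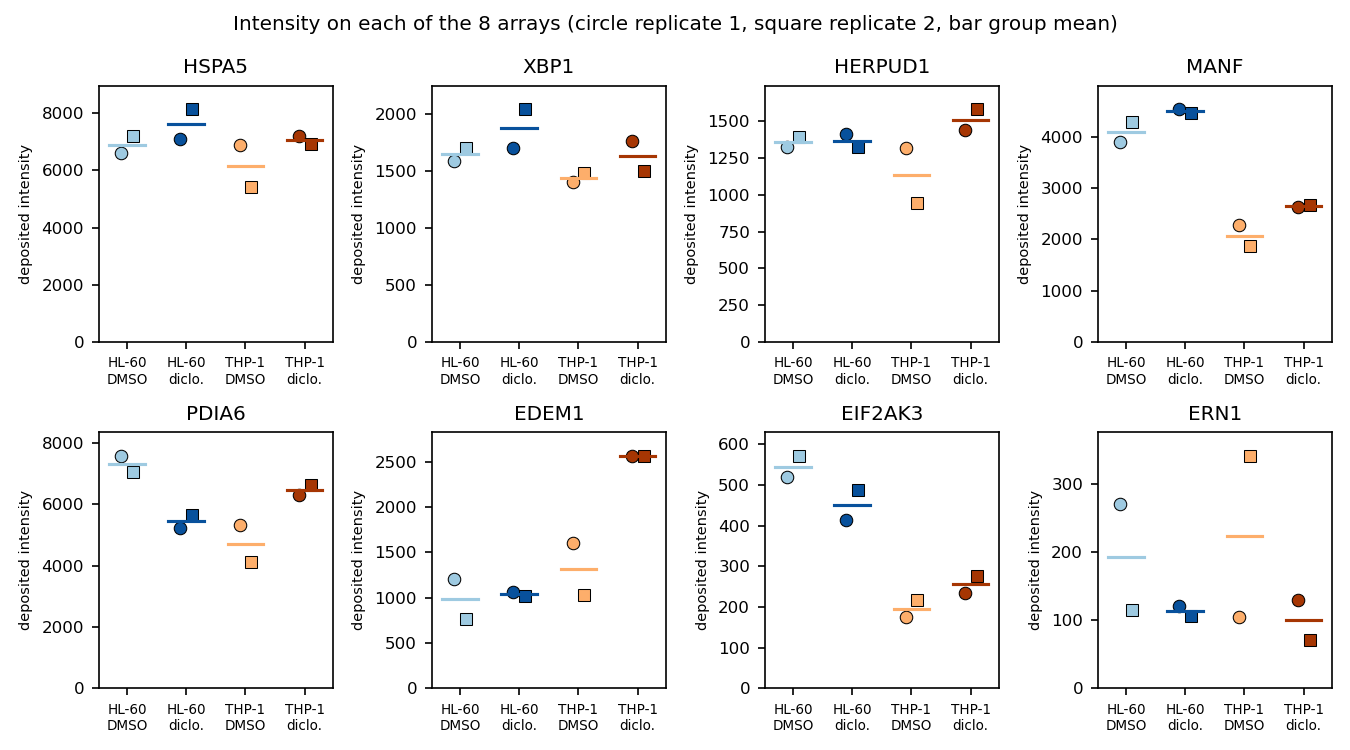
Deposited intensity on each of the 8 arrays for 8 members, with a circle for replicate 1, a square for replicate 2 and a bar for the group mean, each panel with its own linear axis from 0. EDEM1 stands at 2560.8 and 2568.2 with THP-1 diclofenac and at or under 1600.2 elsewhere, PDIA6 is lower with diclofenac in HL-60 and higher in THP-1, and the 4 groups of HSPA5 lie close together.

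None of the 3 sensors passed, nor did XBP1. XBP1, which ERN1 splices and which is itself a target of the response, had 1590.4 and 1701.4 with HL-60 DMSO and 1705.5 and 2041.4 with diclofenac, a change of 0.16 ± 0.14. In THP-1 it had 1400.6 and 1479.1 against 1765.6 and 1499.5, a change of 0.05 ± 0.14 with a 95% interval of -0.28 to 0.38. EIF2AK3 had 518.5 and 571.4 against 412.8 and 487.6 in HL-60, a change of -0.20 ± 0.27. In THP-1 EIF2AK3 had 174.4 and 217.5 against 234.9 and 275.5, a change of 0.65 ± 0.27 (limma, adjusted p = 0.458), with the 217.5 below its array's background and a change of 0.36 without that array. ERN1 had 271.3 and 115.4 against 121.1 and 105.6 in HL-60 and 104.4 and 341.4 against 129.8 and 70.8 in THP-1, overlapping in both lines, with changes of -0.36 ± 0.42 and -0.49 ± 0.42. ATF6 had 32.1 and 84.1 against 23.3 and 111.9 in HL-60 and 507.1 and 337 against 501.8 and 515 in THP-1, also overlapping in both, and its changes were 0.18 ± 0.53 and 0.51 ± 0.53. The 95% intervals were wide, from -1.45 to 0.46 for ERN1 and from -0.70 to 1.73 for ATF6 in THP-1.

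Of the 6 genes of ER-associated degradation, which recognizes misfolded proteins and passes them to the cytosol, 5 were above 0 in THP-1 and 2 in HL-60, and none passed. Their changes had a median of 0.33 in THP-1, or 0.32 by the deposited values, and of -0.03 in HL-60. Both THP-1 medians include the DMSO array that stood apart. Without it the THP-1 changes were -0.30 for DERL1, -0.13 for DERL2, 0.08 for OS9, 0.17 for HERPUD1, 0.32 for SEL1L and 0.66 for EDEM1. EDEM1, which picks out misfolded glycoproteins for degradation and is a known XBP1 target, had 1600.2 and 1025.4 with THP-1 DMSO and 2560.8 and 2568.2 with THP-1 diclofenac. Both treated arrays exceeded both controls, and the change was 0.89 ± 0.22 (limma, adjusted p = 0.261), or 0.97 on the deposited scale (adjusted p = 0.162). Without the array that stood apart the change was 0.66 (limma, adjusted p = 0.407). In HL-60 EDEM1 had 1210.8 and 766.1 against 1058.3 and 1017.9, a change of 0.09 ± 0.22 with overlapping arrays, and the difference between the lines' changes was 0.80 ± 0.31 (limma, adjusted p = 0.671). HERPUD1, a membrane scaffold of the degradation complex, had 1320 and 947.4 against 1438 and 1581.5 in THP-1, a change of 0.35 ± 0.14 (limma, adjusted p = 0.443) that was 0.17 without that array. In HL-60 its change was -0.00 ± 0.14. SEL1L, the scaffold that links OS9 to the ubiquitin ligase, had -0.12 ± 0.16 and 0.08 ± 0.16.

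DERL1 and DERL2 are derlins, membrane proteins of the export channel. DERL2 had 748.5 and 295.9 with THP-1 DMSO against 778.1 and 606.2 with diclofenac, and its change of 0.77 ± 0.47 was -0.13 without the array that stood apart. The 2 DERL1 probe sets differed. The representative had changes of -0.05 in HL-60 and 0.30 in THP-1 with overlapping arrays, and the latter was -0.30 without the array that stood apart and 0.88 without the other control array. The other went from 512.3 and 636.6 to 866.7 and 909.6 in HL-60 and from 399.5 and 246.2 to 624.7 and 547 in THP-1, changes of 0.62 ± 0.38 and 1.11 ± 0.38 (limma, adjusted p = 0.391 in THP-1).

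The 7 subunits of the translocon, the translocon-associated TRAP complex and the signal peptidase, which bring new chains into the ER and cut their signal peptides, had median changes of -0.08 in HL-60 and -0.06 in THP-1, and none passed. SSR2, a TRAP subunit, went from 5641.8 and 5606.8 to 5138 and 4940.2 in HL-60, a change of -0.20 ± 0.08 (limma, adjusted p = 0.986), and in THP-1 its change was -0.06 ± 0.08. SPCS1, a signal peptidase subunit, had 8477.5 and 8224.2 against 9374.9 and 9850.2 in HL-60, a change of 0.08 ± 0.07. In THP-1 it had 12113.6 and 8655.7 against 9601.9 and 10467.6, a change of -0.21 ± 0.07 (limma, adjusted p = 0.394) that was -0.03 on the deposited scale. SPCS3, another subunit, had 3486.1 and 3280.3 with THP-1 DMSO against 2983.9 and 2928.7 with diclofenac, lower on both arrays, with a change of -0.35 ± 0.12 (limma, adjusted p = 0.387). Its probe set may bind other transcripts, and the second SPCS3 probe set had a change of 0.16 ± 0.15.

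The mean of both lines' changes draws on all 8 arrays. It had a median of -0.02 over the 35 genes, of 0.08 on the deposited scale, and was called for 0 of 35, where 0.15% of all genes were called (limma, adjusted). At an unadjusted p under 0.05 were 5 of 35, EDEM1 and MANF above 0 and PPIB, SSR2 and CALR below, where 7.97% of all genes were. The 9 genes with an ERSE or ERSE-II had median changes of -0.10 in HL-60 and 0.05 in THP-1, and the 23 others with a listed promoter -0.08 and 0.13. Of the 9, HSPA5 and XBP1 lay above 0 in both lines.

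**Figure D3:**
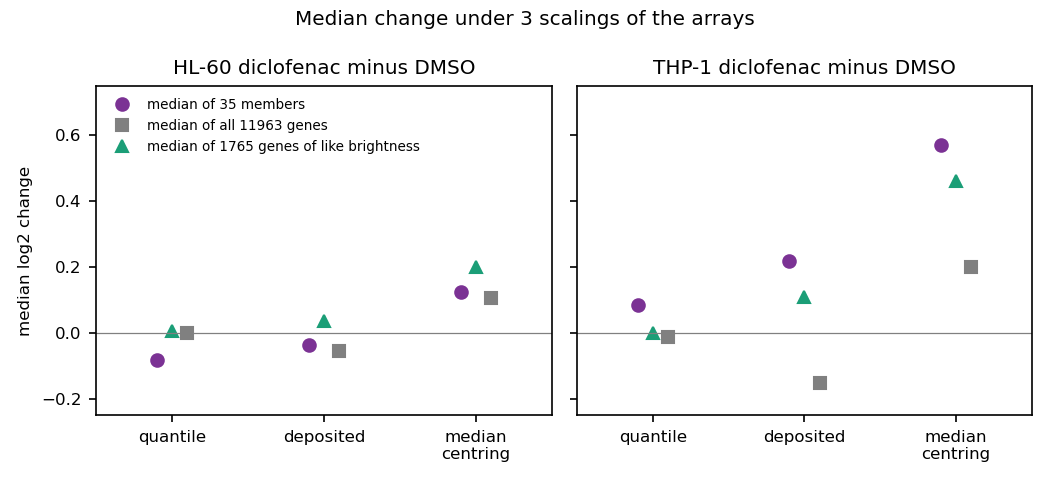
Median log2 change with diclofenac in HL-60 (left) and THP-1 (right) under quantile normalization, on the deposited scale and after centring each array on its median. Circles are the 35 members, squares all 11963 genes and triangles the 1765 genes of like brightness. In THP-1 the members' median is 0.08, 0.22 and 0.57, and the triangles lie at -0.00, 0.11 and 0.46.

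A second set of 75 genes of the same pathways was read as the surroundings of the 35: further regulators and targets of the stress response, the oligosaccharyltransferase, the translocon and vesicle coats. Of these 63 were measured. None was called with diclofenac in either line (limma, adjusted). At an unadjusted p under 0.05 were 8 of the 63 in each line, where 4.56% of all genes were in HL-60 and 11.8% in THP-1. The largest moderated t above 0 in HL-60 was that of ATF4, the transcription factor translated when eIF2α is phosphorylated. ATF4 had 3148.1 and 3164.8 with DMSO against 4981.5 and 5963.8 with diclofenac, a change of 0.71 ± 0.13 (limma, adjusted p = 0.449), and 0.13 ± 0.13 in THP-1. TRIB3, a pseudokinase gene that ATF4 activates, had 1137.7 and 1836.1 against 2567.9 and 2264.3 in HL-60, a change of 0.71 ± 0.20, and 2158.8 and 2080.9 against 3250.4 and 3912 in THP-1, a change of 0.62 ± 0.20. Neither passed, and TRIB3 was brighter on both treated arrays in each line.

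DDIT3, the stress factor CHOP, had 166.9 and 152.8 against 327.7 and 125.3 in HL-60 and 251.9 and 561.1 against 371.4 and 343.7 in THP-1, overlapping in both lines. RPN1, an oligosaccharyltransferase subunit, and TMX1, a membrane thioredoxin, had the largest t below 0 in HL-60, with changes of -0.34 and -0.23. In THP-1 DNAJC10, an ER reductase that works with BiP, had 287.2 and 328.8 against 640.7 and 494.9, a change of 0.99 ± 0.24 (limma, adjusted p = 0.237). SEC24D, a coat subunit of vesicles leaving the ER, had 724.1 and 451.3 against 1083.5 and 943.6, a change of 0.88 ± 0.27. PRKCSH, the regulatory subunit of the enzyme of which GANAB is the catalytic part, had 1285.3 and 1419.5 against 1029.3 and 907, a change of -0.56 ± 0.15 (limma, adjusted p = 0.286), and SRP72, of the signal recognition particle, had -0.25 ± 0.08.

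The second question was how the lines differ in these genes, with DMSO and with diclofenac. With DMSO 4 of 35 genes were higher in THP-1 (limma, adjusted p under 0.05), where 9.28% of all genes were, and 9 were lower, where 9.41% were. ATF6, SPCS1, ERP29 and OS9 were higher and PDIA3, PDIA6, P4HB, EIF2AK3, MANF, SSR4, SPCS2, DERL1 and PPIB lower. With diclofenac 7 were higher, where 8.45% of all genes were, HSP90B1, EDEM1, ATF6, SSR2, ERP29, ERP44 and OS9, and 4 were lower, where 7.67% were, P4HB, MANF, SSR4 and PPIB. The 2 comparisons share no array, but both use each gene's spread estimated over all 8 arrays. In both comparisons 7 genes were called, of 13 called with DMSO and 11 with diclofenac. The share of all genes called in both is not given. Bright genes were called more often, and of the 1765 genes of like brightness 47.1% were called in either direction with DMSO and 44.1% with diclofenac.

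ATF6 had the largest difference of the 35, with 32.1 and 84.1 against 507.1 and 337 with DMSO and 23.3 and 111.9 against 501.8 and 515 with diclofenac. All THP-1 arrays exceeded all HL-60 arrays, and ATF6 was above background on 1 of 2 arrays in each HL-60 group. The log2 difference was 1.91 ± 0.53 with DMSO (limma, adjusted p = 0.0442) and 2.25 ± 0.53 with diclofenac (adjusted p = 0.0251). The call with DMSO held in 8 of 18 settings, and the mean of both ATF6 probe sets gave 1.05 (adjusted p = 0.234). ERP29 had 2103.3 and 2164.6 in HL-60 against 5440.3 and 4022.8 in THP-1 with DMSO, 2.34-fold higher, a log2 difference of 1.23 ± 0.07 (limma, adjusted p = 2.25e-05), and 0.84 ± 0.07 with diclofenac. OS9, the lectin that hands misfolded glycoproteins to the degradation complex, had 1465.2 and 1150.9 against 2131.9 and 1919.1 with DMSO and 1125.8 and 1140.4 against 2055.2 and 2376.4 with diclofenac, differences of 0.70 ± 0.15 and 0.90 ± 0.15.

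SSR4, a TRAP subunit, had 7926.8 and 8142 in HL-60 against 4131 and 3220.1 in THP-1 with DMSO, a log2 difference of -1.03 ± 0.08 (limma, adjusted p = 7.84e-05). With diclofenac SSR4 had 7990.6 and 10200.9 against 4520.6 and 4579, a difference of -0.95 ± 0.08. MANF stood at 3905.1 to 4540.1 on the HL-60 arrays and 1865 to 2677.1 on the THP-1 arrays, with differences of -0.91 ± 0.08 and -0.74 ± 0.08. These genes, with ERP29, kept their call in 17 of 18 settings in each comparison and lost it under median centring. P4HB, the main disulfide isomerase, had 14229.6 and 14925.3 against 10617.4 and 7497.3 with DMSO and 14193.4 and 17130.2 against 10721.8 and 11823.9 with diclofenac, differences of -0.64 ± 0.06 and -0.41 ± 0.06. PPIB had 14211.1 and 14035.5 against 12813.1 and 8265.1 with DMSO and 13436.1 and 16007.5 against 10774.1 and 11437.7 with diclofenac, differences of -0.38 ± 0.06 and -0.35 ± 0.06, and its other probe set gave -0.65 and -0.55. P4HB and PPIB were not called on the deposited scale in either comparison.

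EIF2AK3 was lower in THP-1 with DMSO, by the values given above, at -1.52 ± 0.27 (limma, adjusted p = 0.00659), and with diclofenac the difference of -0.66 ± 0.27 did not pass (adjusted p = 0.188). DERL1 had 1544.1 and 1786.1 against 1119.9 and 525.6 with DMSO, -1.15 ± 0.33 (limma, adjusted p = 0.0479), and 1770.6 and 1478.7 against 806 and 1012.8 with diclofenac, where -0.79 ± 0.33 did not pass. Without the array that stood apart the DERL1 difference with DMSO was -0.57 and was not called. SPCS2, a signal peptidase subunit, had 5373 and 5541.8 against 4696.2 and 3430.8 with DMSO, -0.32 ± 0.08. PDIA6 was called lower with DMSO at -0.53 ± 0.08 and had 0.28 ± 0.08 with diclofenac, but -0.02 and -0.03 by the first of its probe sets without the cross-binding mark. PDIA3 had -0.37 ± 0.07 with DMSO and -0.03 ± 0.07 with diclofenac, and SPCS1 0.37 ± 0.07 and 0.08 ± 0.07.

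With diclofenac EDEM1 was 2.33-fold higher in THP-1, a log2 difference of 1.22 ± 0.22 (limma, adjusted p = 0.0072), and with DMSO 0.42 ± 0.22. HSP90B1 was higher by 0.63 ± 0.16, ERP44 by 0.52 ± 0.13 and SSR2 by 0.30 ± 0.08 with diclofenac, and by 0.40, 0.08 and 0.17 with DMSO, where they did not pass. For none of these 4 was the difference between the lines' changes called. The mean over all ERP44 probe sets gave 0.19 with diclofenac. The 17 genes called in at least 1 comparison cover every role but the lectin chaperones and glycan enzymes. Of those 4 genes, 0 were called in either by the representative probe set. Another CANX probe set was called higher in THP-1 with diclofenac, at 0.57 ± 0.15 (limma, adjusted p = 0.0405), and the remaining one gave -0.04. The share of all genes called in at least 1 comparison is not given. Over the 35 genes the differences with DMSO and with diclofenac correlated at r = 0.85 and had the same sign for 28, and over all genes at r = 0.77 with the same sign for 68.2%, as a description across genes.

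**Figure D4:**
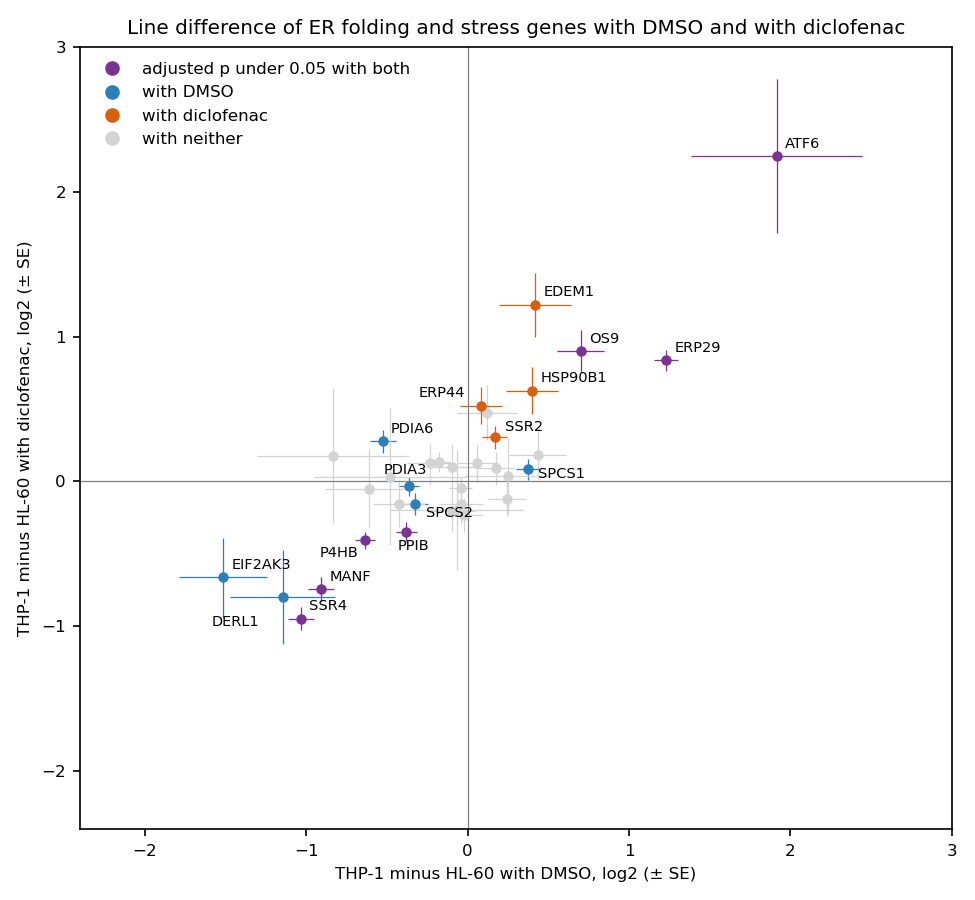
Log2 difference THP-1 minus HL-60 with DMSO (x axis) and with diclofenac (y axis) for the 35 genes, with bars of ± the moderated standard error and colours for the comparisons in which a gene was called. ATF6, ERP29 and OS9 lie at upper right and P4HB, MANF, SSR4 and PPIB at lower left, called in both comparisons.

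On the deposited scale 8 of 35 genes were called between the lines in each comparison, and all 8 in each were among those called after quantile normalization. With DMSO 3 were higher and 5 lower in THP-1, beside 7.64% and 8.63% of all genes, and with diclofenac 6 were higher and 2 lower, beside 8.13% and 7.61%. With DMSO the 8 were PDIA6, EIF2AK3, ATF6, MANF, SSR4, DERL1, ERP29 and OS9, and with diclofenac HSP90B1, EDEM1, ATF6, MANF, SSR4, ERP29, ERP44 and OS9. Between lines and over groups, fewer cells expressing a gene and less RNA per cell cannot be told apart in bulk RNA.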

How the data were processed

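Arrays were Affymetrix arrays read with biotin-labelled cRNA made from total RNA, per the labels. The authors deposited 1 linear intensity per probe set and array. The software behind it is not given in the sources used here. The mean of the deposited intensities without the highest and lowest 2% was 499.2 to 499.8 on every array, and their range was 0.1 to 39370.8. Signal over background limits what can be read from dim probe sets, and precision is limited by there being 8 arrays.

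Values were turned to log2 of the intensity plus 50, quantile normalized, and fitted with limma 3.58.1 in R 4.3.3 as 4 group means over 22215 probe sets (62 controls left out), with an intensity trend, 4 residual and 4.41 prior degrees of freedom. The Benjamini-Hochberg adjustment covered all of these probe sets, at a threshold of 0.05. Errors are moderated standard errors. Log2 changes are of the value plus 50, which understates those of dim genes. Of the probe sets, 19064 had 1 symbol, 1043 several and 2108 were unlisted. A probe set whose name ends in _x_at may bind several transcripts, and 6 representatives are of that kind (HSP90B1, CALR, PDIA6, SPCS3, GANAB, OS9). For 17 genes further probe sets, 26 in all, were read, and 6 in HL-60 and 9 in THP-1 had the opposite sign to the representative. The method was tested on simulated data.

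The members, their roles, the surrounding gene list and the markers were chosen with earlier results of these data known. Members past the threshold, the 3 largest moderated t in each direction and line, and the sensors with XBP1 were named with all arrays; HSPA5, HSP90B1 and other members were added after their values were seen. Replicate numbers were not treated as pairing arrays, since the labels do not say that they pair them. Same-numbered arrays had deviations that correlated at -0.00 (HL-60) and -0.01 (THP-1). Alternatives were the deposited scale, median centring, an offset of 16 or 0, the dimmest 40% left out, no trend, a replicate block, the arrays of a comparison alone, each array left out and a mean over all probe sets of a gene. Taking _x_at probe sets only where a gene has no other was chosen after seeing the data, as was the comparison with genes of like brightness.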

Additional observations from a re-analysis of the deposited data

How the results depend on the processing

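The count of members called with diclofenac was 0 in both lines, in their mean and in the difference between lines in every setting but 1. Without THP-1 DMSO replicate 1 it was 8 in THP-1, 7 in the mean and 11 in the difference, where 32.7%, 22.5% and 19.5% of all genes were called, so over arrays left out in turn it ran from 0 to 8, 0 to 7 and 0 to 11. With a replicate block 0 members were called and the medians were -0.08 and 0.08. The line differences could not be fitted with that block. For the line counts that follow, the share of all genes called is given, above, only for the main fit and the deposited scale. A change in these counts is thus not read as a trait of the members. Between lines with DMSO, 13 members were called, and 8 on the deposited scale, 1 under median centring, 5 without the trend, 7 from the arrays of the comparison alone and 6 to 17 with an array left out. With diclofenac 11 were called, and 1 under median centring, 5 without the trend and 4 to 14 with an array left out. Under median centring the members' median change was 0.13 in HL-60, 0.57 in THP-1, 0.34 in the mean, 0.44 in the difference between lines and -0.41 between lines with DMSO. In the same order, genes of like brightness had medians of 0.20, 0.46, 0.33, 0.26 and -0.29 under median centring. On the deposited scale the members' median was 0.22 in THP-1, beside 0.11 for genes of like brightness.

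Over all settings 22 of 35 members changed sign in at least 1 setting in HL-60 and 22 in THP-1, of which 17 and 13 did under median centring. Among the members named by the fixed rule, under median centring PDIA3 was 0.049 and SSR2 0.0042 in HL-60, and ERP29 0.30, SPCS3 0.16 and SPCS1 0.32 in THP-1. With an array left out, in HL-60 ERN1 ran from -0.73 to 0.013 (positive without DMSO replicate 1) and ATF6 from -0.42 to 0.77 (negative without DMSO replicate 1, at -0.27, or diclofenac replicate 2). In THP-1 ATF6 ran from -0.026 (without DMSO replicate 2) to 1.03, and XBP1 from -0.10 to 0.20 (negative without DMSO replicate 1 or, at -0.06, diclofenac replicate 1). With _x_at probe sets avoided, PDIA6 was -0.14 and SPCS3 0.16 in THP-1. The cause of these changes was not tested.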
